A study of Mus musculus with 144 samples.

Results

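The comparison described here set 6 livers from 24-month-old nmrHAS2 mice, 3 female and 3 male, against 6 livers from 24-month-old CreER mice, also 3 female and 3 male. nmrHAS2 mice carry the hyaluronan synthase 2 gene of the naked mole-rat as a transgene, and the CreER mice, which have the tamoxifen-dependent Cre recombinase without that transgene, were the controls. As the model is generally known, the transgene sits behind a stop cassette that CreER removes after tamoxifen; the labels give genotype, sex, age and tissue and state no strain, tamoxifen schedule or animal number. The members were chosen by label alone, as all liver libraries of 24 months, which are 12 of the 24 liver libraries and of the 144 libraries of the series (the other 12 livers are from mice of 6 months). The question behind the series was what underlies the longer life and better late-life health of nmrHAS2 mice. RNA came from pulverized frozen tissue, so each value is an average over all cells of a piece of liver, and fewer cells of a type and less RNA per cell cannot be told apart. The labels do not tie a library to a named animal, and a p-value therefore covers the spread among libraries, which may be technical.

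Hyaluronan is a long, unbranched sugar polymer of the extracellular matrix that synthases in the plasma membrane spin from activated glucuronic acid and N-acetylglucosamine. The liver is a main site of its removal from blood, where scavenger receptors of the sinusoidal endothelium take it up and lysosomal enzymes degrade it. Long chains are known to dampen inflammation, and short fragments to signal to macrophages and other cells through CD44 and Toll-like receptors. Most liver RNA is made by hepatocytes, which secrete plasma proteins and run intermediary metabolism, beside Kupffer cells (the resident macrophages), endothelium, stellate cells, bile duct cells and the immune cells that gather in the organ with age.

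At 24 months the nmrHAS2 livers had less RNA of markers of macrophages, lymphocytes and neutrophils, of inflammatory mediators and of cell division genes than the CreER livers, with members called in both sexes. Collagen and other matrix genes were lower with the sexes weighted equally, with 16 of 18 called in males and 1 in females. The nmrHAS2 livers had more RNA of many major urinary proteins, clotting and complement factors, and genes of hepatocyte metabolism and the respiratory chain, and the rise of drug metabolism genes differed between the sexes. Most of these rises were called in males: 13 of 20 hepatocyte markers against 1 in females, and 66 of 75 nuclear respiratory chain genes against 0. They also depended on scaling, and with library totals only 0 of the 75 were higher. Of 40946 genes in the table, 17270 passed the filter on low counts and were tested with edgeR's quasi-likelihood F test, and a gene is called here when its Benjamini-Hochberg adjusted p was under 0.05. With the sexes weighted equally, 3210 genes were higher (18.6% of those tested) and 3166 lower (18.3%), together 36.9%. Levels are given as CPM (counts per 1000000 counts of the library) scaled by edgeR's TMM factors, always in the order of replicates 1, 2 and 3 and with CreER before nmrHAS2 where values are set against each other, and changes as nmrHAS2 minus CreER on the log2 scale with their standard error. Lists of genes are described by how many of their tested members were called and by their median change, beside the 0.06 median of all genes tested.

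The transgene transcript was barely detectable in the livers compared. It had 0, 0 and 3 counts in the female CreER livers and 3, 1 and 21 in the female nmrHAS2 livers, 0, 0 and 0 in the male CreER livers and 1, 5 and 3 in the male nmrHAS2 livers. All 6 nmrHAS2 libraries held at least 1 count, and 1 of the 6 CreER libraries, female replicate 3, held counts as well. A count of 0 allows up to 3 counts, which is 0.0342 to 0.137 CPM in these libraries, so most values lie at or under what could be seen at this depth (the limits cover counting error only). The test across genes called the transcript with the sexes weighted equally (adjusted p = 0.00373) and in males (0.0259), but not in females (0.0836). No fold is given. Female nmrHAS2 livers of 6 months held 38, 34 and 49 counts, more than any liver compared, and male ones 3, 0 and 1. The filter and the shared estimate of the spread used these livers too. The calls are therefore not evidence from the livers compared alone, and no conclusion is drawn from them. The mouse's own Has2 had 0 to 5 counts per library in the livers compared and did not pass the filter.

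Depth at 24 months ranged from 21.9 to 87.8 M (M, 1000000 counts) counts per library. The labelled tissue was borne out by Alb, the albumin gene, at 28304 to 168230 CPM in the 12 livers, while the summed markers of skeletal muscle stayed at 0.534 to 4.58 CPM, of pancreas at 0.143 to 1.39 CPM and of fat at 3.14 to 49.7 CPM. The female libraries held 13.8 to 16.0% of counts in RNAs without a poly(A) tail and the male libraries 0.0021 to 0.0163%. In females the genotypes overlapped in this share, and in males the nmrHAS2 libraries (0.00809 to 0.0163%) were above the CreER libraries (0.0021 to 0.00727%), with 4 of 9 such RNAs called higher. The male libraries numbered 1 of each genotype, female CreER library 1 and female nmrHAS2 library 3 stood apart from the others of their groups, and where 1 of them carries a value this is said beside it.

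Among the genes of hyaluronan itself, 5 of 8 receptors were lower, genes of breakdown went in both directions, and 7 of 12 genes for proteins that bind hyaluronan were higher. The shares of all genes were 18.6% higher and 18.3% lower. Of 7 tested genes for the sugar precursors, 2 were higher and 0 lower: Ugdh, which makes UDP-glucuronic acid, and Gnpnat1, which acetylates glucosamine phosphate (change 0.49 ± 0.14, adjusted p = 0.0101). Ugdh was at 76.3, 58.8 and 54.1 CPM in female CreER and 73.5, 94.0 and 96.6 CPM in female nmrHAS2 livers, and at 96.9, 134 and 148 CPM in male CreER and 196, 281 and 286 CPM in male nmrHAS2 livers. The male groups were apart and the female groups overlapped (change 0.74 ± 0.15, adjusted p = 0.000881). With library totals in place of TMM factors 0 of the 7 were higher and 3 lower, and without male CreER library 1 only 1 was higher.

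Of 7 genes for breakdown, 2 were higher and 3 lower; the higher count was 1 under 13 of the alternatives. Hexa, a subunit of the lysosomal hexosaminidase that trims sugar chains, stood at 78.2, 81.3 and 80.2 CPM in the female CreER livers against 36.1, 44.3 and 30.7 CPM in the female nmrHAS2 livers. In males it stood at 147, 149.5 and 130.1 against 97.0, 50.8 and 48.5 CPM. Every nmrHAS2 liver lay below every CreER liver of its sex (change -1.11 ± 0.15, adjusted p = 3.09e-05). The glucuronidase Gusb fell too (-0.87 ± 0.16). The hyaluronidases that start the breakdown went the other way. Hyal1 was higher in males, at 10.9, 12.4 and 13.4 against 21.6, 32.6 and 32.4 CPM, while the female groups overlapped at 25.9, 30.0 and 27.1 against 39.3, 37.8 and 15.7 CPM (change 0.70 ± 0.16, adjusted p = 0.00218). Hyal2 was higher by 0.26 ± 0.09, a rise whose sign turned with library totals only.

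Of 8 receptors, 0 were higher and 5 lower, with a median of -1.08. Cd44, the chief cell surface receptor, stood at 93.5, 106 and 93.6 CPM in male CreER and 44.0, 20.04 and 14.1 CPM in male nmrHAS2 livers. In females the values were 42.4, 32.5 and 26.7 and 28.7, 14.0 and 15.3 CPM. The male groups were well apart and the female groups overlapped (change -1.36 ± 0.26, adjusted p = 0.000509). Tlr4, a Toll-like receptor to which hyaluronan fragments are known to signal, was lower in every nmrHAS2 liver of either sex: 18.5, 23.1 and 24.2 against 8.47, 7.13 and 8.57 CPM in females, 39.9, 27.1 and 21.1 against 12.4, 3.83 and 2.89 CPM in males (change -1.82 ± 0.28, adjusted p = 8.30e-05). Tlr2 (-1.61 ± 0.28), the endothelial receptor Lyve1 (-1.22 ± 0.40) and Hmmr, which also serves the mitotic spindle (-0.94 ± 0.34), were the other 3 that fell. The clearance receptors were not called: Stab2 was at 72.3, 69.7 and 55.4 against 67.3, 66.9 and 60.9 CPM in females and 89.7, 57.0 and 44.8 against 53.3, 61.3 and 45.7 CPM in males, groups that overlap throughout (change -0.14 ± 0.16, adjusted p = 0.539), and Stab1 changed by -0.18 ± 0.14. Over the alternatives to the analysis, 3 to 8 of the receptors were lower, the fewest without female nmrHAS2 library 1, male CreER library 1 or male nmrHAS2 library 3.

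Of 12 genes for proteins that bind or link hyaluronan, 7 were higher and 1 lower. Itih4, a plasma protein of the inter-alpha-trypsin inhibitor family, whose heavy chains are transferred onto hyaluronan, was at 3059.5, 2971 and 2678 CPM in female CreER and 6640.4, 4229.7 and 5384 CPM in female nmrHAS2 livers, and at 1449, 1265 and 1361 against 2352, 3133 and 2902 CPM in males. All 6 nmrHAS2 livers were above the CreER livers of their sex (change 0.97 ± 0.19, adjusted p = 0.00052). The other 6 were Hapln4, Habp4, Habp2, Itih1, Itih2 and Ambp, with changes of 0.999, 0.58, 0.54, 0.51, 0.50 and 0.37. With library totals only, 1 of the 12 was called higher. Vcan, the matrix proteoglycan versican, was the 1 that fell: 3.26, 3.76 and 2.80 against 1.45, 0.431 and 1.55 CPM in females and 15.0, 3.88 and 2.05 against 1.43, 0.693 and 0.229 CPM in males, with the highest CreER value in male library 1 (change -2.31 ± 0.51, adjusted p = 0.0015).

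Markers of every immune cell type listed were lower in the nmrHAS2 livers, with 0 of their members called higher with the sexes weighted equally. Of 14 Kupffer cell markers, 11 were lower (median -1.66), as were 12 of 15 of recruited macrophages (-1.77), 9 of 13 of antigen presentation and dendritic cells (-2.10), 9 of 14 of B and plasma cells (-1.61), 16 of 19 of T and NK cells (-1.67) and 8 of 10 of neutrophils (-2.33). The background of lower calls among all genes was 18.3%. In females alone, where 1.88% of genes were called higher and 5.99% lower (together 7.87%), 8, 9, 6, 3, 9 and 3 of these members were lower. In males, where 18.9% were higher and 16.7% lower (together 35.6%), 11, 13, 9, 8, 9 and 9 were lower.

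Summed over its 14 markers, the Kupffer cell signal was 2458, 3424 and 3329.9 CPM in female CreER livers and 1577, 889.7 and 1233 CPM in female nmrHAS2 livers. In males it was 5745, 4104 and 3891 CPM against 2657, 822 and 686 CPM. The genotypes did not overlap within either sex, and male nmrHAS2 library 1 was the highest of its group by far. Livers of 6 months summed to 273 to 1494 CPM, below every CreER liver of 24 months. Timd4, the receptor by which resident Kupffer cells bind dying cells, was at 33.5, 51.0 and 41.4 against 12.3, 5.89 and 3.33 CPM in females and at 102, 47.2 and 46.5 against 11.3, 12.3 and 10.7 CPM in males. All nmrHAS2 livers lay below all CreER livers of either sex (change -2.54 ± 0.29, adjusted p = 1.24e-05). Clec4f, a lectin found on Kupffer cells, was at 413, 668 and 697 against 206, 142 and 197 CPM in females and 1149, 583 and 527 against 439.9, 141 and 119 CPM in males (-1.70 ± 0.29). The 3 chains of complement C1q, which macrophages make, fell by 1.94 to 1.98. The 3 markers that were not called were the scavenger receptors Marco (-0.74 ± 0.69) and Cd163 (1.26 ± 0.50) and the iron exporter Slc40a1.

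**Figure D1:**
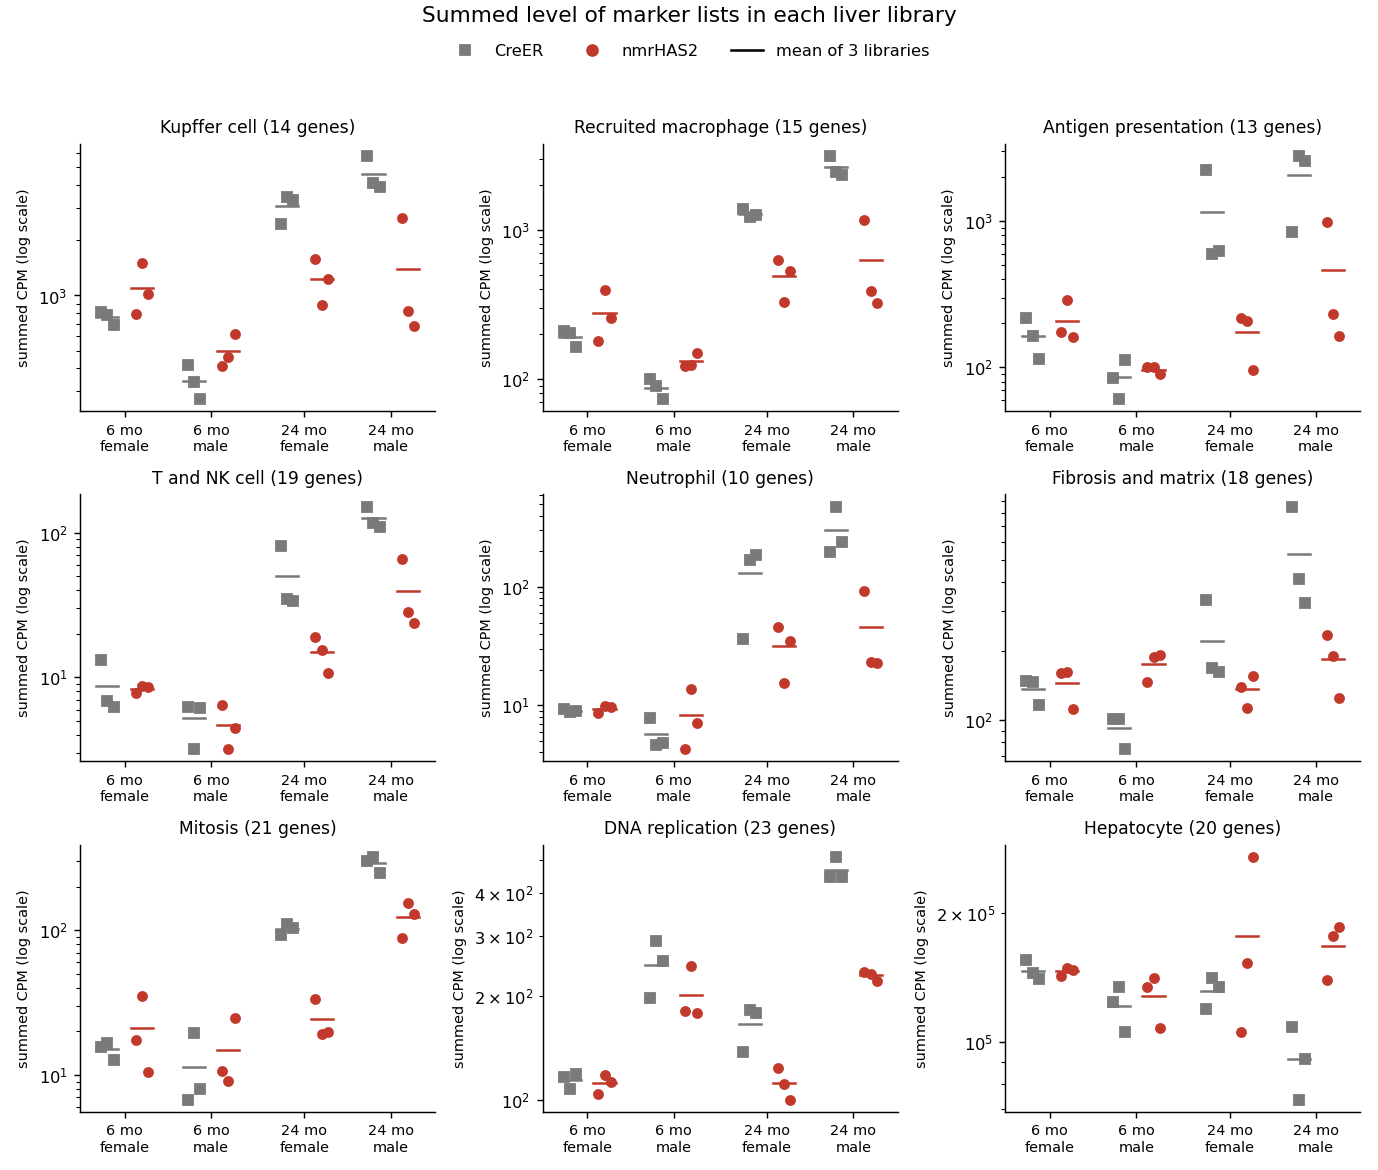
Summed CPM (log axis) of 9 gene lists in each of the 24 liver libraries, by age, sex and genotype; squares are CreER, circles nmrHAS2, replicates 1 to 3 stand from left to right and lines are means of 3. For Kupffer cells the 24-month nmrHAS2 livers lie at 686 to 2657 CPM and the CreER livers at 2458 to 5745 CPM, while livers of 6 months lie at 273 to 1494 CPM.

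Macrophages that enter the liver from blood gave the same picture. Cd68, a lysosomal protein of macrophages, was at 48.2, 73.7 and 64.3 CPM in female CreER and 19.4, 13.4 and 8.77 CPM in female nmrHAS2 livers, and at 227, 155 and 131 against 85.4, 26.2 and 20.4 CPM in males. The genotypes were apart in both sexes (change -2.06 ± 0.31, adjusted p = 6.26e-05). Ccr2, the receptor that draws monocytes from blood, fell by 1.79 ± 0.27, and Lgals3, galectin 3, by 1.52 ± 0.23. The summed recruited macrophage signal fell short of the 24-month CreER range of 1215 to 3130 CPM in all 6 nmrHAS2 livers (322 to 1162 CPM); livers of 6 months had 73.2 to 393 CPM. Cd9 was an exception in females, where it was higher: 26.1, 19.7 and 18.7 against 26.4, 43.0 and 140.2 CPM, with most of the difference in library 3 (change in females 1.70, adjusted p = 0.0121). In males it was at 62.4, 37.6 and 40.1 against 33.2, 24.5 and 23.8 CPM.

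Class II antigen presentation varied between CreER livers as well as between genotypes. H2-Aa, a class II histocompatibility chain, was at 597, 145 and 142 CPM in female CreER and 50.1, 46.1 and 22.6 CPM in female nmrHAS2 livers. In males it was at 186, 787 and 769 against 236, 60.2 and 43.0 CPM. The number 1 libraries of female CreER, male CreER and male nmrHAS2 differed from the other 2 of their groups, and the male groups overlapped through them (change -2.63 ± 0.46, adjusted p = 0.000225). H2-DMb1, which loads peptides onto class II, was apart in both sexes: 45.9, 16.5 and 17.1 against 6.49, 5.48 and 2.99 CPM and 42.8, 62.3 and 54.1 against 19.3, 6.11 and 3.85 CPM (change -2.43 ± 0.34, adjusted p = 4.28e-05).

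Lymphocyte genes were expressed at low levels throughout. Cd79b, part of the B cell receptor, was at 8.70, 11.4 and 11.1 against 2.93, 2.61 and 1.41 CPM in females and at 8.11, 15.1 and 12.7 against 5.06, 2.32 and 2.34 CPM in males, with no overlap (change -2.03 ± 0.35, adjusted p = 0.000222). Ncr1, an activating receptor of NK cells, was near 1 CPM in every CreER liver, at 0.856, 1.12 and 1.49 and 1.27, 1.15 and 1.11 CPM in females and males. It was at 0.0519, 0.0508 and 0.0162 CPM in the female and 0.623, 0.204 and 0.0917 CPM in the male nmrHAS2 livers, all below the CreER livers (change -3.38 ± 0.41, adjusted p = 2.32e-05). The T cell genes Cd3d (-1.67 ± 0.34) and Cd4 (-2.91 ± 0.44) and the inhibitory receptor Pdcd1 (-1.76 ± 0.33) fell as well.

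Of the 6 immune lists, the neutrophil markers had the largest median fall with the sexes weighted equally. In females alone the medians of antigen presentation (-2.16) and of T and NK cells (-1.80) were lower than that of neutrophils (-1.76). S100a8, a calcium-binding protein that fills the neutrophil cytoplasm, was at 7.89, 41.5 and 47.8 CPM in female CreER and 10.9, 2.97 and 8.48 CPM in female nmrHAS2 livers. In males it was at 49.1, 112 and 54.8 against 19.9, 4.48 and 4.77 CPM. Female CreER library 1 fell within the nmrHAS2 range, so the female groups overlapped (change -2.50 ± 0.49, adjusted p = 0.000641). The granule proteins Camp (-3.93 ± 0.71), Ngp (-3.25 ± 0.72) and Ltf (-3.22 ± 0.80) were among the 10 largest falls of genes at 5 CPM or more. The platelet chemokine Pf4 fell by 3.86 ± 0.50, and 4 of 5 platelet genes were lower. Red cell genes, which report blood in the tissue, had 1 of 8 members lower with the sexes weighted equally (3 with DESeq2), and in males 3 lower and 1 higher (median -1.45). The shares of all genes were 18.3% lower with the sexes weighted equally, and 16.7% lower and 18.9% higher in males. The red cell counts are therefore not read as a result by themselves. The summed level of the red cell genes was 2878, 2086 and 1625 CPM in male CreER and 590.2, 1264 and 813 CPM in male nmrHAS2 livers, which did not overlap. In females it was 108, 178 and 225 and 149, 306 and 66.8 CPM, with overlap. The part of blood in the falls of immune and platelet genes was not tested.

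Of 20 inflammatory cytokine, chemokine and inflammasome genes, 0 were higher and 17 lower (median -1.54), with 16 to 19 lower over the alternatives. Casp1, the inflammasome protease that matures interleukin 1, was at 13.8, 12.3 and 10.4 against 5.76, 3.53 and 4.74 CPM in females and 22.1, 19.6 and 18.8 against 9.60, 4.85 and 4.63 CPM in males. Each nmrHAS2 liver was below each CreER liver, across sexes too (change -1.52 ± 0.18, adjusted p = 1.69e-05). Il18, a cytokine that Casp1 matures, fell by 1.19 ± 0.16, the chemokine Cxcl16 by 1.57 ± 0.23 and the monocyte chemokine Ccl7 by 2.97 ± 0.48. Ccl8, another monocyte chemokine, was at 12.4, 2.96 and 3.41 CPM in female CreER and 0.182, 0.203 and 0.0162 CPM in female nmrHAS2 livers, and at 16.2, 19.8 and 14.6 against 3.01, 2.28 and 1.38 CPM in males, apart in both (change -4.28 ± 0.47, adjusted p = 1.00e-05). The B cell chemokine Cxcl13 had the largest fall of the genes at 5 CPM or more, 5.09 ± 0.65, with 958, 782 and 735 CPM in male CreER livers against 45.5, 10.0 and 7.52 CPM in male nmrHAS2 livers. Mmp9, a matrix protease of neutrophils and macrophages (-3.45 ± 0.51), the macrophage lectin Clec10a (-3.31 ± 0.47), Ms4a8a (-3.17 ± 0.44) and the ubiquitin-like modifier Ubd (-3.56 ± 0.62) completed the 10 largest falls.

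Of 16 acute-phase genes, which hepatocytes make when inflamed, 2 were higher and 2 lower, beside 18.6% and 18.3% of all genes. The plasma proteins Crp (0.80 ± 0.17) and Lbp (0.65 ± 0.18) rose, and the interleukin 1 antagonist Il1rn (-2.04 ± 0.39) and Saa3 (-1.02 ± 0.36) fell. Interferon-response genes differed from the cytokines and between the sexes: 8 of 15 were higher and 1 lower with the sexes weighted equally, 8 higher and 0 lower in males (median 1.14), 0 higher and 1 lower in females (median -0.24). Ifit1, an interferon-induced inhibitor of viral translation, was at 15.4, 40.7 and 45.6 CPM in male CreER livers and 61.8, 335 and 354 CPM in male nmrHAS2 livers, highest in libraries 2 and 3 (change in males 2.89, adjusted p = 0.0006). In females it was at 21.8, 16.4 and 16.1 and 31.1, 7.97 and 17.3 CPM. The male minus female difference itself was called for 7 of the 15, where 3.62% of all genes were called higher and 0.724% lower for that difference, 4.34% in all. With library totals only, 1 of the 15 was higher and 3 were lower. Without male CreER library 1 only 1 was higher and 2 were lower, and 4 were higher without female nmrHAS2 library 1, male nmrHAS2 library 2 or male nmrHAS2 library 3.

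Genes of collagen and fibrosis fell in nearly all cases: 16 of 18 were lower and 0 higher (median -1.12; 14 to 17 lower over the alternatives). In males 16 were lower and in females 1, or 10 at an unadjusted p under 0.05 and 5 with DESeq2, and the difference between the sexes was called for 0 of the 18 (5 at an unadjusted p under 0.05, 1 with DESeq2). Col1a2, a chain of type I collagen, was at 27.8, 10.3 and 10.4 CPM in female CreER and 6.28, 5.63 and 5.47 CPM in female nmrHAS2 livers, and at 66.9, 23.0 and 18.6 against 12.1, 8.43 and 5.87 CPM in males. The CreER library 1 of each sex was the highest, and the genotypes stayed apart without it (change -1.76 ± 0.30, adjusted p = 0.000185). Tgfb1, the growth factor that drives collagen synthesis, was at 30.98, 25.6 and 23.3 CPM in male CreER and 11.5, 5.30 and 4.58 CPM in male nmrHAS2 livers, and at 3.38, 4.03 and 5.13 against 2.34, 2.03 and 1.71 CPM in females, apart in both sexes (change -1.47 ± 0.24, adjusted p = 0.000128). The proteoglycan Lum fell by 1.23 ± 0.21. Acta2, the actin of activated stellate cells, was not called (-0.56 ± 0.34, adjusted p = 0.216).

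Resident stellate cells, the vitamin A storing cells that turn into collagen makers, had 5 of 10 markers lower and 0 higher (median -0.47). In males 6 were lower. In females 0 were lower, also at an unadjusted p under 0.05 and with DESeq2. Hgf, their growth factor for hepatocytes, was at 21.0, 17.6 and 14.0 against 10.2, 8.31 and 3.94 CPM in males and 44.9, 46.6 and 42.6 against 38.4, 33.3 and 40.8 CPM in females (change -0.74 ± 0.22, adjusted p = 0.0111). Over the alternatives 3 to 8 members were lower, the fewest without male nmrHAS2 library 3. Sinusoidal endothelium had 4 of 14 markers higher and 3 lower, with a median of -0.02, and its summed level overlapped between genotypes in both sexes. The 3 lower were Lyve1, given above, the Fc receptor Fcgr2b (-0.36 ± 0.09) and the junction cadherin Cdh5, which was named after its values were seen (-0.68 ± 0.21); only 1 was lower without male nmrHAS2 library 3. Clec4g, a lectin of these cells, was at 52.6, 47.0 and 47.6 against 64.6, 63.7 and 83.8 CPM in females and 15.2, 20.5 and 23.5 against 31.3, 44.6 and 48.2 CPM in males, higher in all 6 nmrHAS2 livers (change 0.80 ± 0.12, adjusted p = 6.47e-05). The endothelial signals Bmp2 (0.69 ± 0.14), which sets hepatic iron handling, and Wnt2 (0.85 ± 0.20), which patterns the liver lobule, also rose, as did Kdr. Bile duct markers had 1 of 9 higher and 1 lower. Beside these endothelial and bile duct counts stand 18.6% of all genes higher and 18.3% lower.

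**Figure D2:**
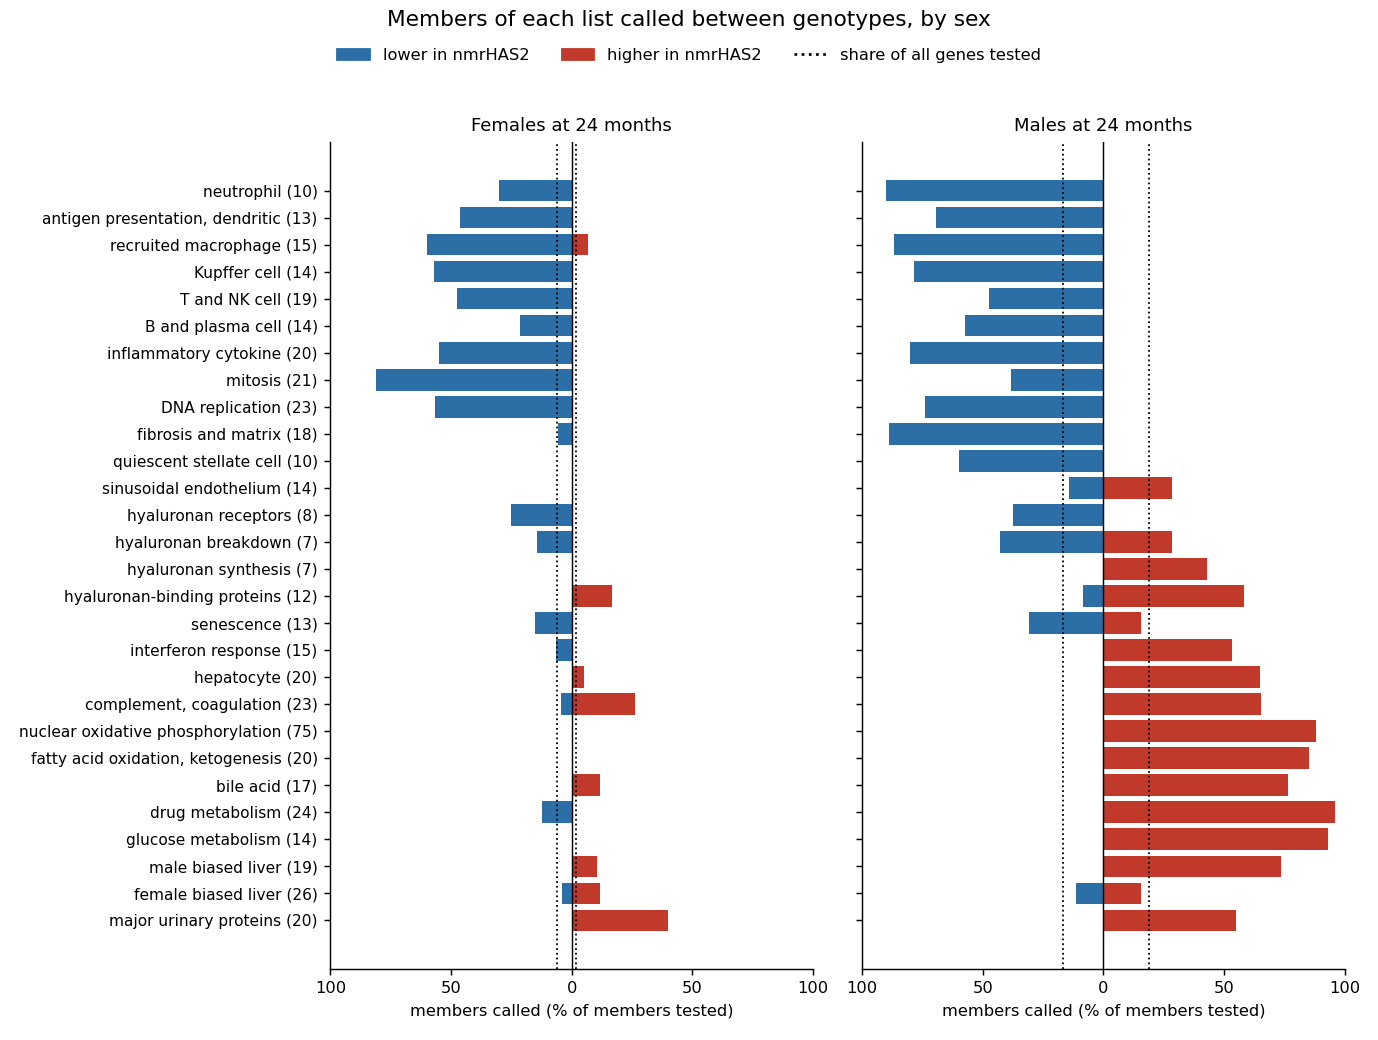
Percent of tested members called lower (bars to the left) and higher (bars to the right) in 28 gene lists at 24 months, females in the left panel and males in the right, with dotted lines at the shares of all genes. Immune and cytokine lists are lower in both sexes, while the collagen list is lower for 1 of 18 members in females and 16 of 18 in males.

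Genes of cell division were lower in both sexes. Of 23 DNA replication genes 17 were lower and 0 higher (median -1.20; 13 lower in females, 17 in males), and of 21 mitosis genes 20 were lower (median -1.50; 17 in females, 8 in males). Over the alternatives 17 to 20 and 15 to 20 were lower. Mcm6, a subunit of the helicase that opens DNA at replication forks, was at 8.30, 11.3 and 11.7 CPM in female CreER and 4.21, 3.07 and 1.78 CPM in female nmrHAS2 livers. In males it was at 38.7, 45.8 and 38.2 against 16.3, 13.4 and 11.2 CPM. No values overlapped within a sex (change -1.69 ± 0.22, adjusted p = 2.44e-05). Uhrf1, which carries DNA methylation through replication, was at 3.21, 3.88 and 3.26 against 0.961, 0.609 and 0.243 CPM and at 22.1, 23.0 and 18.1 against 4.47, 2.57 and 2.29 CPM, again with no overlap (change -2.65 ± 0.40, adjusted p = 6.59e-05). The helicase subunits Mcm3 and Mcm4, the flap endonuclease Fen1 and the ribonucleotide reductase subunit Rrm1 had the smallest adjusted p of the list and fell by 1.43, 1.20, 1.22 and 1.04.

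Of the mitosis genes, Top2a, the topoisomerase that untangles chromosomes, was at 17.4, 26.4 and 25.5 CPM in female CreER and 5.17, 2.97 and 2.57 CPM in female nmrHAS2 livers, and at 54.5, 49.9 and 39.9 against 15.0, 16.1 and 13.2 CPM in males. The genotypes were apart in both sexes (change -2.20 ± 0.36, adjusted p = 0.000147). The spindle motor Kif11 (-1.64 ± 0.20), the checkpoint kinase Bub1b (-2.11 ± 0.31) and Aurkb (-2.10 ± 0.33) fell likewise. Ccnb1, the cyclin of mitotic entry, was at 2.73, 1.65 and 3.18 against 0.883, 0.406 and 1.02 CPM in females and 12.2, 11.9 and 8.81 against 3.41, 10.0 and 8.94 CPM in males, where nmrHAS2 libraries 2 and 3 lay within the CreER range (change -1.13 ± 0.40, adjusted p = 0.0298). Summed over the 21 genes, mitosis was at 88.5, 155 and 128 CPM in male nmrHAS2 livers, still above the 6.76 to 35.3 CPM of livers of 6 months, and at 33.5, 19.2 and 19.9 CPM in the female ones. Immune cells divide too, so the cells that carried these transcripts cannot be told apart in bulk RNA.

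Promoters of some of these genes hold the motifs of cell cycle genes, and examples chosen because they hold a motif are shown here. Below are the 100 bases before the start of 2 replication genes and 2 mitosis genes, from RefSeq on GRCm38.p6, 5′ to 3′ on the gene's strand. Capitals mark 2 motifs on either strand: the E2F motif (searched as TTGGCGC and also as TTCCCGC, further as TTGCCGC, and lastly as TTCGCGC), which binds the factors that switch on S phase genes, and the CCAAT box, read as ATTGG on the other strand. Other replication genes whose windows were read, such as Mcm2, Mcm3 and Mcm5, had no E2F match there, and the window of the second Uhrf1 start had neither motif. In Mcm6 a pair of overlapping E2F matches forms 1 run of capitals. The windows are chr1:128359706-128359805 (Mcm6, minus strand), chr17:56303237-56303336 (Uhrf1, plus strand), chr11:99024190-99024289 (Top2a, minus strand) and chr13:100786487-100786586 (Ccnb1, minus strand).
Mcm6: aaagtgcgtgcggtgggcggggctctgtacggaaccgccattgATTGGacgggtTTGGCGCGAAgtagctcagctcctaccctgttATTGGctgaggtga
Uhrf1: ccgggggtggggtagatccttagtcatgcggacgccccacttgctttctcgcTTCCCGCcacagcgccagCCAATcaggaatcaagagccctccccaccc
Top2a: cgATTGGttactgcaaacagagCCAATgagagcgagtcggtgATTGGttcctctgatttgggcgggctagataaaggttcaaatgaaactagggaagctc
Ccnb1: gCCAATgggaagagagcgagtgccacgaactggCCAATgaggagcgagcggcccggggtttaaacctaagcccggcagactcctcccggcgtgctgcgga
In the 250 bases before the start, an E2F motif stood in 12 of 24 promoters of the replication genes, 16.7% of 18 promoters of the mitosis genes and 7.89% of all 32851 promoters of the table. The CCAAT box stood in 62.5%, 88.9% and 33.8% of them. Among promoters of genes that were tested the shares were 12.3% for E2F and 35.1% for CCAAT. A match is a description of the letters and shows no binding.

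Of 15 genes of fetal liver and liver tumours, 8 were lower and 0 higher with the sexes weighted equally (median -1.06). In males 7 were lower and 0 higher, beside 16.7% and 18.9% of all genes. In females 2 were lower and 1 higher, beside 5.99% and 1.88%. The sex difference was called for 2 of the 15. Afp, the fetal counterpart of albumin, was at 0.618, 1.29 and 1.43 against 0.182, 0.102 and 0.291 CPM in females and 4.11, 1.91 and 1.90 against 1.43, 0.774 and 0.367 CPM in males, low but apart in both sexes (change -2.05 ± 0.46, adjusted p = 0.00178). Of 13 senescence genes, 2 were higher and 4 lower, beside 18.6% and 18.3% of all genes. Glb1, the lysosomal galactosidase behind the usual senescence stain, was at 20.1, 21.4 and 20.9 against 12.1, 10.9 and 9.79 CPM in females and 51.2, 36.8 and 33.2 against 23.0, 17.6 and 16.8 CPM in males, with no overlap (change -1.004 ± 0.13, adjusted p = 2.44e-05). The stress hormone Gdf15 rose by 0.94 ± 0.21. The cell cycle inhibitors Cdkn1a (-0.13 ± 0.41, adjusted p = 0.835) and Cdkn2a (0.64 ± 0.66, adjusted p = 0.484) were not called.

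The rises described next depended on how libraries were scaled. The TMM factors of the male CreER livers were 1.43 to 1.56 and those of the male nmrHAS2 livers 0.931 to 1.14. Among all calls, 50.3% were higher with TMM factors, 43.2% with the relative log expression factors of DESeq2 and 6.43% with library totals only. The median change of all genes was 0.06, 0.00 and -0.36 under these 3 scalings. Each rise below is therefore relative to the bulk of genes, and counts under library totals only are given beside the lists.

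**Figure D3:**
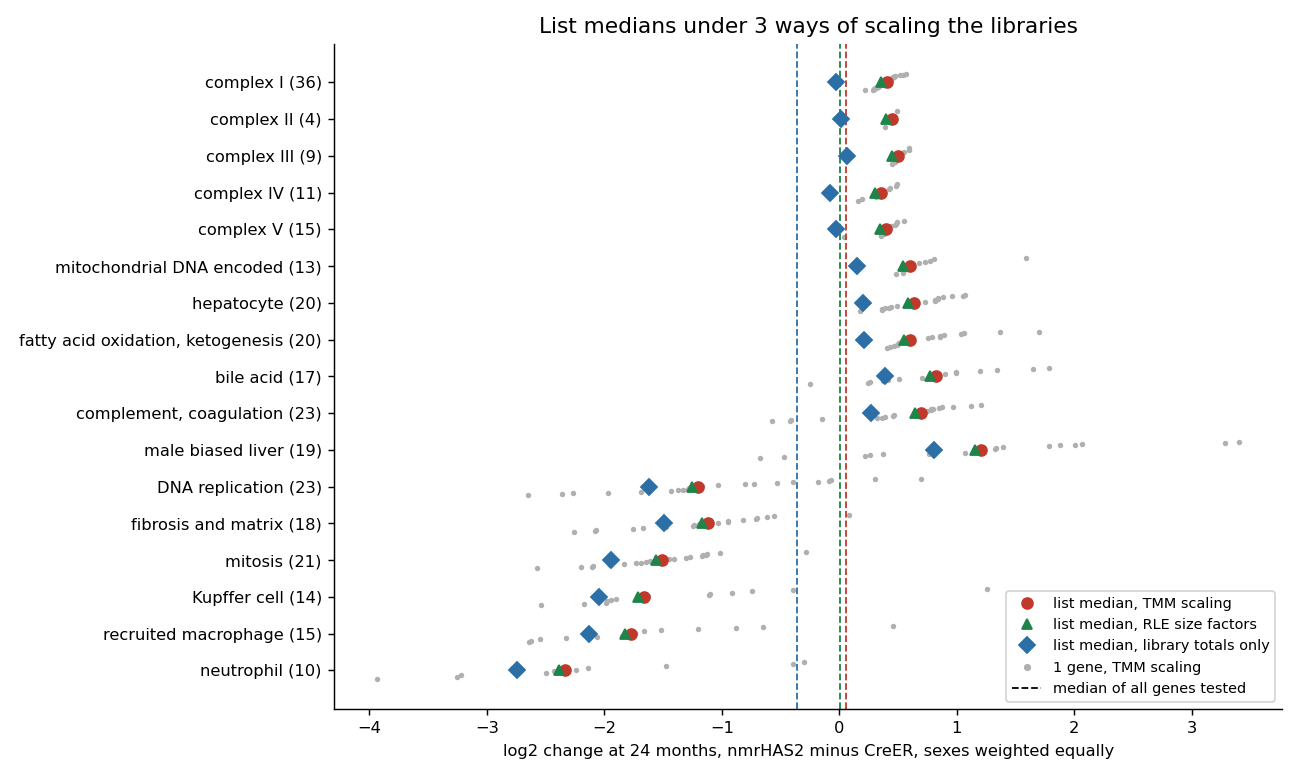
Median log2 change (nmrHAS2 minus CreER, 24 months, sexes weighted equally) of 17 gene lists under TMM factors, relative log expression factors and library totals only; dashed lines are the medians of all genes, 0.06, 0.00 and -0.36. Immune, matrix and division lists stay far below 0 under all 3. From TMM factors to library totals only, the complex I list moves from 0.41 to -0.025 and the complex III list from 0.50 to 0.063.

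Hepatocyte genes were higher: 14 of 20 markers with 0 lower (median 0.64), 13 in males and 1 in females; 3 were higher with library totals only and at least 11 under every other alternative. Serpinc1, antithrombin, was at 1559.7, 1355 and 1231 CPM in female CreER and 1658, 1835 and 2614 CPM in female nmrHAS2 livers, and at 741, 781 and 932 against 1436, 1798 and 1899.8 CPM in males. All nmrHAS2 livers were above the CreER livers of their sex (change 0.81 ± 0.13, adjusted p = 9.80e-05). Hnf4a, the transcription factor that keeps hepatocyte identity, was at 387, 408 and 438 against 442, 519 and 657 CPM and at 184, 192 and 209.7 against 504, 440.2 and 433 CPM (change 0.81 ± 0.16, adjusted p = 0.000749).

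Complement and clotting factors, which hepatocytes secrete into plasma, had 17 of 23 genes higher and 0 lower with the sexes weighted equally (median 0.70). In females 6 were higher and 1 lower (8 and 3 with DESeq2), and in males 15 were higher and 0 lower. F7, clotting factor VII, was at 104, 54.7 and 49.0 against 116, 121 and 221 CPM in females and 27.4, 26.4 and 32.2 against 56.4, 73.4 and 77.8 CPM in males, apart in both (change 1.21 ± 0.18, adjusted p = 7.68e-05). Mbl2, a complement-activating lectin, rose by 1.12 ± 0.16, plasminogen, Plg, by 0.85 ± 0.11 and prothrombin, F2, by 0.70 ± 0.11. With library totals only, 7 of the 23 were higher and 1 lower.

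Of 16 fatty acid synthesis genes 8 were higher and 1 lower, 7 were higher with library totals only, and 6 to 9 were higher over the alternatives. Of 22 cholesterol synthesis genes 5 were higher and 0 lower, beside 18.6% and 18.3% of all genes. The 5 became 0 under library totals only and 2 without male CreER library 1. Me1, malic enzyme, which makes NADPH for fat synthesis, was at 41.7, 34.4 and 41.0 CPM in female CreER and 107, 79.5 and 95.8 CPM in female nmrHAS2 livers, and at 10.5, 28.6 and 29.0 against 74.6, 113 and 91.3 CPM in males. The groups were far apart (change 1.65 ± 0.22, adjusted p = 2.84e-05). Mlxipl, the carbohydrate-sensing transcription factor (1.44 ± 0.21), the carboxylase Acacb (1.45 ± 0.25) and Dgat2, the last enzyme of triglyceride synthesis (0.96 ± 0.12), rose in both sexes. In glucose metabolism 12 of 14 genes were higher (1 with library totals only). By sex 13 were higher in males and 0 in females, beside 18.9% and 1.88% of all genes, and the sex difference was called for 4. The insulin receptor Insr was at 75.8, 75.7 and 72.9 against 91.3, 100.3 and 84.1 CPM in females and 54.5, 53.3 and 52.7 against 98.5, 102 and 103 CPM in males (change 0.61 ± 0.08, adjusted p = 2.44e-05). G6pdx, the first enzyme of the pentose phosphate path, fell by 1.97 ± 0.27.

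Genes of fat burning, bile acid and amino acid metabolism were called higher more often in males, as were all genes (18.9% in males, 1.88% in females). Of 20 genes of fatty acid oxidation and ketone synthesis 14 were higher, 17 in males and 0 in females; of 17 bile acid genes 11, 13 and 2; of 18 genes of the urea cycle and amino acids 12, 16 and 0 (with 1 lower in females). Scaled by library totals only, 5, 9 and 2 members of these 3 lists were higher. The male minus female difference was called for 10, 6 and 7 of them. Cpt2, which brings fatty acids into mitochondria, was at 33.0, 41.0 and 47.6 CPM in male CreER and 91.3, 116 and 131 CPM in male nmrHAS2 livers. In females it was at 129.9, 107 and 91.8 and 130.2, 154 and 106 CPM. The male groups were apart and the female groups overlapped (change 0.86 ± 0.13, adjusted p = 6.74e-05). Abcc2, an exporter of conjugates into bile, was apart in both sexes, at 223, 199 and 193 against 273, 265 and 302 CPM and 130.3, 203 and 203 against 325, 472 and 436 CPM (change 0.82 ± 0.14, adjusted p = 0.000138). Otc, a urea cycle enzyme, rose by 0.78 ± 0.18 and the bile acid importer Slc10a1 by 0.90 ± 0.16.

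The nuclear genes of the respiratory chain and ATP synthase moved by a small and even amount. Of 75 tested, 75 had a change above 0, 68 were called higher and 0 lower (median 0.42), 66 in males (median 0.63) and 0 in females (median 0.21; 9 higher at an unadjusted p under 0.05 and 1 with DESeq2). The difference between the sexes was called for 4 of them. By complex, 33 of 36 genes of complex I, 4 of 4 of complex II, 9 of 9 of complex III, 9 of 11 of complex IV and 13 of 15 of complex V were higher. Uqcrc1, a core subunit of complex III, rose by 0.55 ± 0.09, and Atp5a1, the alpha subunit of ATP synthase, by 0.40 ± 0.09. With library totals only 0 of the 75 were higher and 1 was lower (median -0.02, beside -0.36 for all genes), and at least 40 were higher under every other alternative. The 40 were those without male CreER library 1, where complex I had 18 and complex IV 2 genes higher; without male CreER library 2 they had 21 and 4. Summed, these genes reached 6917 to 8828 CPM in the nmrHAS2 livers and 4365 to 6862 CPM in the CreER livers, with 8516 to 11846 CPM at 6 months. Of the 13 protein genes of mitochondrial DNA, 9 were higher, but 1 with library totals only, 1 without male CreER library 1 and 1 with 24-month females of the most frequent library kind only. Leaving out 1 of 6 other libraries gave 2 to 5: female CreER library 1 or 3, female nmrHAS2 library 3, male CreER library 2, and male nmrHAS2 library 2 or 3.

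The largest rises of genes at 5 CPM or more were major urinary proteins (Mup), small lipocalins that the liver secretes for scent signalling under growth hormone and androgen control. The family was higher in 15 of its 20 tested genes and lower in 0 (median 3.45; 8 in females, 11 in males; 13 with library totals only; 12 to 16 over the alternatives, the fewest without male CreER library 1). Its summed level was 5546, 3211 and 3337 CPM in female CreER and 70499, 16677 and 98098 CPM in female nmrHAS2 livers, and 1151, 9564 and 12233 CPM in male CreER and 27059, 48669 and 64484 CPM in male nmrHAS2 livers. Every nmrHAS2 liver was above every CreER liver, and livers of 6 months held 22243 to 251570 CPM. The values of single genes are uncertain because the family members are nearly identical. The first 60 coding bases of the 8 Mup genes with the largest rises show this, from GENCODE vM21 transcripts, with capitals where a base differs from Mup1.
Mup1: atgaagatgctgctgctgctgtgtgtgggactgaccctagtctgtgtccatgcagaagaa
Mup2: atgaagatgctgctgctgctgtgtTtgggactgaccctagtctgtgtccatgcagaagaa
Mup9: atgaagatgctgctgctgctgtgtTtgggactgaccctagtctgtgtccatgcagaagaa
Mup17: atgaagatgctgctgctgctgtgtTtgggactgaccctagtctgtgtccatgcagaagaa
Mup16: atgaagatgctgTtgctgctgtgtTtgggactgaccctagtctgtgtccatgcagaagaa
Mup19: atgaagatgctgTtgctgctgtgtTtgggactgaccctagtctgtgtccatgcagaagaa
Mup7: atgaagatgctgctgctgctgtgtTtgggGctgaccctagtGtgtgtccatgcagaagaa
Mup12: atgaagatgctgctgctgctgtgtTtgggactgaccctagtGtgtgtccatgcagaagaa
Mup2, Mup9 and Mup17 are identical over this stretch, as are Mup16 and Mup19. Over the whole frame of 543 bases, 12 of the other 13 Mup genes of that length differed from Mup1 at 2 to 7 bases. Over 22 Mup genes, a median of 7.0% of the 31-base words of a transcript occurred in no other gene (0 to 74.2%). With that limit, Mup19 was at 1280.5, 419 and 405 against 28045, 5593 and 52409 CPM in females and 2.01, 244 and 356 against 2099, 6861 and 9558 CPM in males (change 5.15 ± 0.84, adjusted p = 0.000133). Mup20, which encodes a male pheromone known as darcin, was not called (-0.25 ± 0.39).

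Other genes that differ between male and female livers were mixed. Male-biased genes rose in males as the Mup genes did, and female-biased genes went in both directions. Of 19 male-biased genes 12 were higher and 0 lower (median 1.21; 14 in males, 2 in females; 9 with library totals only), and of 26 female-biased genes 8 were higher and 2 lower (3 and 3 with library totals only; 4 higher without female nmrHAS2 library 3, male CreER library 2 or male CreER library 3). Slco1a1, a male-biased organic anion importer, was at 6.68, 24.7 and 25.1 CPM in male CreER and 166, 283 and 289.8 CPM in male nmrHAS2 livers, and under 1 CPM in every female (change 3.41 ± 0.62, adjusted p = 0.000331). Hsd3b5, a male-biased steroid dehydrogenase, was at 0.0552, 0.998 and 1.14 against 16.5, 67.8 and 83.2 CPM in males. Cyp2c40, a female-biased cytochrome P450, was at 229, 139.6 and 149 against 183, 234 and 239 CPM in females and 3.01, 1.12 and 0.820 against 11.7, 13.04 and 16.4 CPM in males, so that it rose where it is low (change in males 3.05, adjusted p = 6.77e-05). The Cyp2c genes also have close copies, which makes their single values uncertain. Igf1, the growth hormone target that liver releases to blood, was at 425, 345 and 307 against 637, 485 and 592 CPM and 321, 328 and 376 against 455, 442 and 497 CPM, higher in all 6 nmrHAS2 livers (change 0.56 ± 0.11, adjusted p = 0.000838). The prolactin receptor Prlr rose by 1.48 ± 0.29, and Jak2, the kinase below the growth hormone and prolactin receptors, fell by 0.49 ± 0.09.

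The response itself differed between the sexes for 750 genes: the male minus female difference was positive for 625 (3.62%) and negative for 125 (0.724%). This count was 125 when only the 12 livers of 24 months were fitted and 162 with library totals only, and it ran from 207 without female CreER library 2 to 1463 without male nmrHAS2 library 1, so it is less firm than the counts of the genotype difference. It fell to 209 without male CreER library 1, to 269 without male CreER library 2, to 292 and 250 without male nmrHAS2 libraries 2 and 3, to 367 with females of 1 library kind and to 484 with no filter; it rose to 1237 with DESeq2. Drug metabolism had 15 of 24 such genes, fatty acid oxidation 10 of 20 and pericentral hepatocyte markers 7 of 12. Of the 24 drug metabolism genes, 16 were higher and 1 lower with the sexes weighted equally (7 and 1 with library totals only), 23 were higher in males (median 1.47), and 3 were lower and 0 higher in females (median -0.04).

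Il1rap, the accessory protein of the interleukin 1 receptor, had the smallest p of the difference. It was at 49.0, 66.5 and 70.1 CPM in female CreER and 23.4, 33.6 and 21.5 CPM in female nmrHAS2 livers, and at 23.1, 35.6 and 46.3 against 84.3, 116 and 133 CPM in males. The groups were apart in both sexes, in opposite directions (male minus female 2.91 ± 0.35, adjusted p = 0.000773). Etnppl, a lyase of phosphoethanolamine, did the same at 19.1, 32.6 and 28.5 against 6.86, 13.9 and 5.73 CPM and 13.1, 21.6 and 27.2 against 61.1, 81.4 and 97.1 CPM (3.56 ± 0.49). Cyp2c37, a cytochrome P450 of drug metabolism, was at 619.7, 652 and 711 against 482, 603 and 145 CPM in females and 32.4, 75.6 and 93.3 against 457, 589 and 807 CPM in males (3.89 ± 0.53). Glul, the glutamine synthetase of the innermost pericentral cells, was at 904, 1301 and 1107 against 742, 784 and 815 CPM in females, not called (-0.50, adjusted p = 0.0943), and at 239, 323 and 324 against 841, 673 and 611 CPM in males (1.26, adjusted p = 6.56e-05). For each of these 4 genes the male CreER livers had a lower mean than the female CreER livers.

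**Figure D4:**
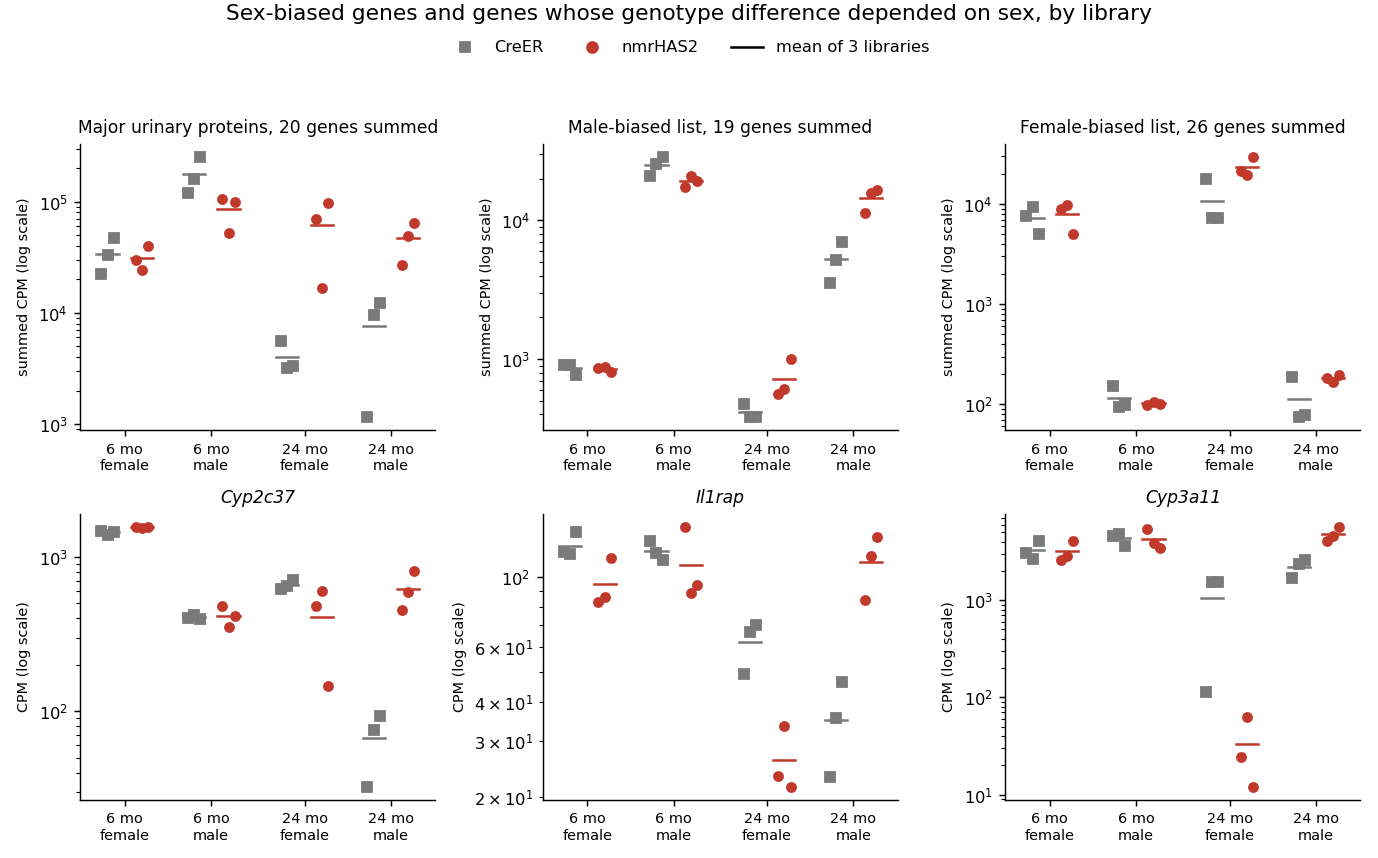
CPM (log axis) in the 24 liver libraries of the summed Mup, male-biased and female-biased lists and of Cyp2c37, Il1rap and Cyp3a11, by age, sex and genotype; squares are CreER, circles nmrHAS2 and lines means of 3. Il1rap falls in nmrHAS2 females and rises in nmrHAS2 males, and every nmrHAS2 liver of 24 months lies above every CreER liver of that age for the Mup sum.

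Cyp3a11, the main steroid and drug hydroxylase, was the gene of this kind with the largest gap in females: 114, 1525 and 1552 CPM in CreER against 24.6, 62.3 and 12.04 CPM in nmrHAS2 livers (change in females -5.01, adjusted p = 0.00168), while in males it was at 1686, 2354 and 2584 against 4044, 4555 and 5714 CPM, not called (1.11, adjusted p = 0.161). Female CreER library 1 was also low. Counting genes called in each sex, 173 were higher in both (1.0% of those tested), 847 lower in both (4.9%) and 15 opposite (0.0869%). The 15 included Cyp2c50 and Cyp2c54, Nox4, a hydrogen peroxide producing oxidase, and Tdo2, the first enzyme of tryptophan breakdown, which fell in females and rose in males, and the leptin receptor Lepr, which rose in females and fell in males. Genes whose nmrHAS2 and CreER values did not overlap in either sex numbered 1274 with nmrHAS2 higher (7.38%) and 2184 with nmrHAS2 lower (12.6%).

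**Figure D5:**
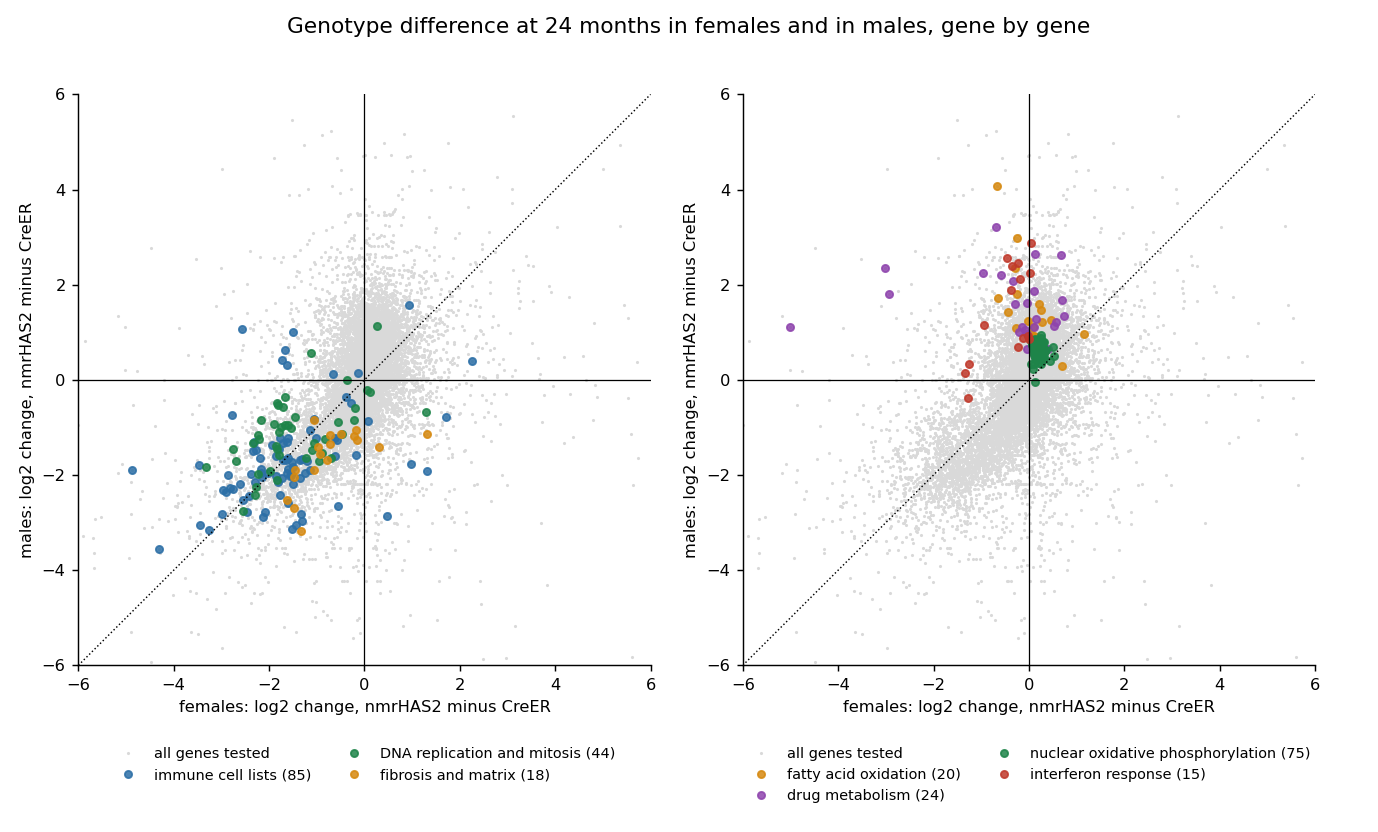
Log2 change in males against log2 change in females at 24 months for the genes tested (grey), with immune, division and matrix lists coloured on the left and metabolic and interferon lists on the right; the diagonal is dotted, and 52 of 17270 genes lie beyond the axis limit of 6 and are not shown. Most immune and division genes lie below 0 on both axes, and drug metabolism genes have a median of 1.47 in males and -0.04 in females.

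The counts in females were carried by few libraries. The 1359 calls in females became 111 without nmrHAS2 library 3, 398 without CreER library 2, 456 without CreER library 3 and 664 without nmrHAS2 library 2. They became 4 when the 2 females of the other library kind, number 3 of each genotype, were left out together, which leaves 2 against 2, and 2094 with DESeq2. In males the 6154 calls became 4042 without nmrHAS2 library 3, the fewest when 1 library was left out. With the sexes weighted equally the count stayed between 5142 and 7452.

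At 6 months the same comparison gave few calls. With edgeR 6 genes were higher (0.0347%) and 2 lower (0.0116%), 0.0463% in all; 2500 genes had an unadjusted p under 0.05, and DESeq2 called 298 higher and 182 lower. Leaving out 1 library of 24 months moved the 8 calls from 2 without male nmrHAS2 library 2 and 3 without female CreER library 2 to 33 without male nmrHAS2 library 1. The 6 were Adamts4, Hecw2, Map4k4, Ptprb, Rnf144a and Specc1l, and the 2 were Per2 and Zfp967. Of 757 members of any list, 1 was called, Per2 of the circadian clock (31 higher and 18 lower with DESeq2). Where list members leaned at 6 months, it was at times against the direction at 24 months: at an unadjusted p under 0.05, 11 of 18 collagen and fibrosis genes were higher and 0 lower, and 42 of 75 nuclear respiratory chain genes were lower and 0 higher. The test of the difference between ages called 4640 genes (26.9%), 2391 with a more positive change at 24 months (13.8%) and 2249 of the 17270 genes tested with a more negative one, 26.9% in either direction. Of the lists, 11 of 14 Kupffer cell, 13 of 15 recruited macrophage, 15 of 18 collagen and fibrosis, 16 of 23 DNA replication, 13 of 21 mitosis and 6 of 8 hyaluronan receptor genes had a more negative change at 24 months. In the other direction stood 70 of 75 nuclear respiratory chain genes and 15 of 20 Mup genes. The 6-month values therefore enter these counts as well. Mitochondrial counts were 10.7, 3.52 and 5.73% in male nmrHAS2 livers of 6 months, and 10.98 to 11.26% in male CreER livers of 6 months. These nmrHAS2 livers had 19330, 14538 and 17613 genes above 0. Summed muscle markers reached 50.9 CPM in female nmrHAS2 library 3 of 6 months, and at most 1.10 CPM in 6-month CreER livers. No 6-month library was left out, so the part of these libraries in the counts was not tested. The females of 6 months were all of the library kind that holds female number 3 of each genotype at 24 months.

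Lpl, lipoprotein lipase, which frees fatty acids from blood triglycerides, was among the 6 genes with the smallest p of that difference. At 24 months it was at 68.7, 56.2 and 45.4 against 29.2, 16.3 and 18.9 CPM in females and 475, 277 and 273 against 119, 59.6 and 52.1 CPM in males, apart in both (change -1.78 ± 0.20, adjusted p = 1.24e-05). At 6 months its change was 0.76 ± 0.20, not called (adjusted p = 0.0911). Hmgb2, a chromatin protein of dividing cells, was at 12.5, 13.9 and 13.2 against 6.54, 3.96 and 4.03 CPM and 41.0, 60.4 and 48.9 against 17.3, 10.8 and 9.72 CPM (change -1.72 ± 0.16, adjusted p = 5.52e-06) with 0.29 ± 0.17 at 6 months. Mpeg1, a pore-forming protein of macrophages (-1.54 at 24 months, 0.66 at 6 months), Anln, an actin ring protein of cell division (-1.63, 0.45), the annexin Anxa2 (-1.63, 0.41) and Itpripl2 (-1.54, 0.52) were the other 4.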

How the data were processed

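RNA sequencing libraries of 24 mouse livers were analysed, of which 12 are compared here (21.9 to 87.8 M counts each, M being 1000000). The authors deposited expected counts, made with Salmon 1.4.0 after trimming with Trim Galore 0.6.5, per the submitters' processing notes; the sources used here name no genome build or annotation. Values of 1000000 or more carry 3 significant digits in the file (77 in liver). Expected counts were rounded and fitted with edgeR 4.0.16 (R 4.3.3; filterByExpr, TMM, glmQLFit, glmQLFTest) over 24 libraries in 8 groups (age by sex by genotype), which share one estimate of the spread, with Benjamini-Hochberg adjustment over 17270 genes. Contrasts were nmrHAS2 minus CreER at 24 months (sexes weighted equally, and each sex), the male minus female difference, the same at 6 months, and 24 minus 6 months. The scripts were tested on simulated data.

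Alternatives were relative log expression factors, library totals only, no filter, DESeq2 1.42.0, a replicate block, only the 24-month livers, library kind as a term, females of the most frequent kind only, and leaving out each 24-month library; leaving out the male libraries numbered 1 together was chosen after seeing the data. Library kinds were told apart by the share of RNAs without a poly(A) tail (over or under 1%) and of counts that are not whole (over or under 40%). No 2 replicates were identical or differed by sampling noise alone. The 56 gene lists and the genes named (hyaluronan genes, up to 4 called members of each list with the smallest p, the 10 largest rises and falls at 5 CPM or more, the 6 smallest p of the sex and the age difference, and all Mup genes) were chosen with earlier results of these data known. Clec4f, Marco, Cd163, Slc40a1, Cd9, Acta2, Alb, Mcm6, Uhrf1, Ccnb1, Glul, Cyp3a11, Cdkn1a, Cdkn2a, Cdh5, Kdr and the genes called at 6 months or in opposite directions were named after their values were seen. Promoter sequences came from RefSeq and Mup sequences from GENCODE. Of 40946 gene symbols in the file, 39779 were in the reference table of gene names. A few named genes are not reported here.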

Additional observations from a re-analysis of the deposited data

Results flagged for a closer look

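Among 22 groups of 6 libraries tested for a value far from the rest, 5 were found, where chance alone gives about 1 in 20. Male nmrHAS2 library 1 had the highest summed recruited macrophage markers of the nmrHAS2 livers at 24 months, 1162 CPM, and the highest T and NK cell markers, 66.0 CPM. Male CreER library 1 had the highest summed collagen and fibrosis genes of the CreER livers, 855 CPM. Female CreER library 3 (84.5 M counts, M being 1000000) and female nmrHAS2 library 3 (87.8 M) were the deepest of their genotypes.

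The test of the male minus female difference called 750 genes, with Il1rap at 2.91, Mpzl2 at 1.43, Cyp2c68 at 1.81, Gpld1 at 1.53, Cyp2c37 at 3.89 and Etnppl at 3.56 on the log2 scale having the smallest p. The test of the difference between 24 and 6 months called 4640 genes, with Lpl at -2.54, Mpeg1 at -2.19, Hmgb2 at -2.01, Itpripl2 at -2.06, Anxa2 at -2.03 and Anln at -2.08.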

How the results depend on the processing

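The 6376 calls at 24 months stayed within 1.5 times under all 21 alternatives (5142 to 7452), and 5799 of them were shared with relative log expression factors, 6002 with DESeq2 and 6076 with the replicate block. Library totals only shared 3652, of which 3645 had the same direction. The female count of 1359 became 2094 with DESeq2 and 4 with females of 1 kind, and 111 to 1691 when 1 library was left out. The male count of 6154 ran from 4042 to 6419 when 1 library was left out. The sex difference of 750 genes became 162 with library totals only, 484 with no filter, 1237 with DESeq2, 125 with only the 24-month livers, 367 with females of 1 kind, 1296 with the replicate block and 207 to 1463 when 1 library was left out. The age difference of 4640 kept within 1.5 times (3594 to 6332). The 8 genes at 6 months became 34 with relative log expression factors, 114 with library totals only, 37 with no filter, 65 with the replicate block, 38 with library kind as a term and 480 with DESeq2, 2 to 33 when 1 library of 24 months was left out, and 87 without the male libraries numbered 1. The fit of only the 24-month livers gives no value for the age difference, and no library of 6 months was left out. The causes of these shifts were not tested.

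Of 5313 values of named genes under the alternatives, 4998 kept direction and side of the threshold, 273 lost the call, 20 gained it and 22 turned sign. With library totals only, 72 of the 232 called named genes lost the call, and these turned sign: Ugp2 (-0.19), Uap1 (-0.20), Hyal2 (-0.15), Itih3 (-0.24), Itih5 (-0.035), Ambp (-0.040), Sdhc (-0.033), Sdhb (-0.0055), Cox4i1 (-0.10), Cox6c (-0.0046), Atp5a1 (-0.024), Idh3b (-0.025), Il1rap (-0.19), Mpzl2 (-0.047) and Etnppl (-0.22). Leaving out 1 library in turn moved the log2 change of Hapln1 between -1.61 and 0.12, of Mup22 between -1.69 and 16.62 and of Etnppl between -0.064 and 0.31; none of these passed the test over all libraries.

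Same-numbered libraries of the 2 genotypes correlated at 0.149, 0.178 and 0.432 in females and 0.196, 0.0608 and 0.234 in males. All were positive, but 1 was not over 0.1, the bound set for each pair, so the numbers were not taken as pairs; whether they pair cannot be settled from these values. With the replicate block 1 named call was lost. Female CreER library 2 correlated best with nmrHAS2 library 1 (0.192), and male nmrHAS2 library 2 with CreER library 3 (0.0732), not with their own numbers.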

Other observations

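Genes that mark the zones of the liver lobule were also measured (edgeR's quasi-likelihood test, adjusted over all genes tested). Of 10 periportal genes 6 were higher in nmrHAS2 livers at 24 months and 0 lower. By sex 1 was higher in females and 8 in males. Beside the counts of both zones stand 18.6% of all genes higher and 18.3% lower, with 1.88% higher in females and 18.9% in males. Cyp2f2, a cytochrome P450 of periportal hepatocytes, was at 101, 113 and 97.0 CPM in female CreER and 233, 135 and 245 CPM in female nmrHAS2 livers. In males it was at 204, 426 and 585 CPM in CreER and 1018, 963 and 1070 CPM in nmrHAS2 livers. The groups did not overlap in either sex, and its log2 change was 1.15 ± 0.18 (SE, adjusted p = 0.0001). Of 12 pericentral genes 5 were higher and 0 lower, with 0 higher in females and 10 in males, and the male minus female difference passed the test for 7 of them. Slc1a2, a glutamate transporter, was at 9.90, 28.95 and 35.3 CPM in male CreER and 149, 116 and 124 CPM in male nmrHAS2 livers. In females the ranges overlapped, at 203, 222 and 206 CPM against 110, 183 and 360 CPM. With library totals only, 2 periportal and 1 pericentral genes were higher and 0 lower. The pericentral count was 3 without male CreER library 1 or male nmrHAS2 library 1, and with 24-month females of the most frequent library kind only.

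Of 19 circadian clock genes 5 were higher and 0 lower over both sexes (3 higher without male CreER library 1 or 2), beside 18.6% and 18.3% of all genes. In males alone 6 were higher, and in females 0, where 3 had an unadjusted p under 0.05 and DESeq2 called 1. Nfil3, a transcriptional repressor of the clock, was at 8.11, 10.1 and 12.04 CPM in male CreER and 30.2, 31.7 and 31.7 CPM in male nmrHAS2 livers, with a log2 change over both sexes of 1.12 ± 0.21 (SE, adjusted p = 0.00036). The hour at which the livers were taken is not in the labels used here. Scaled by library totals only, 2 clock genes were higher and 2 lower. Of 13 immediate early genes 0 were higher and 2 lower, beside 18.6% and 18.3% of all genes. The lower count was 4 by DESeq2, 1 without male CreER library 1 and 5 without male nmrHAS2 library 1. Egr2, an early growth response factor, fell by 2.15 ± 0.44 on the log2 scale (adjusted p = 0.00079).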
